A study of Mus musculus with 46 samples.

Results

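The mitochondrion keeps a small circular genome (mtDNA) that encodes core subunits of the respiratory chain, together with the ribosomal and transfer RNAs that translate them inside the organelle. All other subunits of the chain are encoded in the nucleus and imported, so each respiratory complex except complex II is assembled from the products of both genomes. Both strands of the circle are transcribed as long precursors, the transfer RNAs are cut out of them, and the level of each messenger RNA depends on transcription, processing and stability. In skeletal muscle these genes are known for their high RNA levels, and oxidative fibres hold more mitochondria than fast glycolytic fibres.

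The genes described were chosen by name from the Ensembl identifiers of the deposited count tables. They are 10 protein genes of mtDNA: *mt-Nd1*, *mt-Nd2*, *mt-Nd4*, *mt-Nd5* and *mt-Nd6* of complex I, which takes electrons from NADH. The others are *mt-Cytb* of complex III, which passes them to cytochrome c; *mt-Co1*, *mt-Co2* and *mt-Co3* of complex IV, which hands them to oxygen, and *mt-Atp6* of complex V, the ATP synthase. Of these 10, 7 had a row in each table, out of 17514 genes in the first table and 16987 in the second. *mt-Co2*, *mt-Co3* and *mt-Atp6* had no row in the tables used here, so no value can be given for them. The filter on low values, 0.5 CPM (counts scaled by library, as counts per 1e6) in at least 2 libraries, removed no gene.

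Total RNA of mouse skeletal muscle was sequenced after depletion of ribosomal RNA, in 2 separate experiments on C57BL6 mice that were wild type (WT) or knocked out (KO) for *Actn3*, the gene of the fast-fibre protein α-actinin-3. In the first, gastrocnemius was taken from males 12 weeks after orchidectomy (ORX, removal of the testes) or sham surgery at 8 to 10 weeks of age: 6 WT-sham libraries (43.4 to 50.3 M counts each), 6 WT-ORX (39.9 to 55.4), 6 KO-sham (29.5 to 37.5) and 5 KO-ORX (26.7 to 48.5). In the second, spinalis was taken from females 6 weeks after a subcutaneous implant, placed at 4 to 5 weeks of age, that was empty or held 10 mg of the androgen dihydrotestosterone (DHT): 5 WT-empty libraries (37.3 to 51.2 M counts each), 6 WT-DHT (34.8 to 53.9), 5 KO-empty (42.5 to 47.8) and 6 KO-DHT (34.9 to 51.7). Of 46 labelled samples, 45 had a column, since KO-ORX sample 6 had none. The experiments differ in sex, muscle, age and treatment together, so levels set side by side across them come from separate tables and were not tested.

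The genotype labels held in every library. *Actn3* lay between 5977 and 9617 CPM in the 12 WT libraries of the first experiment and between 34.3 and 54.8 CPM in the 11 KO libraries. In spinalis it lay between 6164 and 10353 CPM in WT and between 56.6 and 83.2 CPM in KO. Markers of fast fibres were the most abundant of the marker lists in every group, led by *Myh4*, the myosin of the fastest fibres, with a mean of 45991 CPM in gastrocnemius and 71982 CPM in spinalis.

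Position and sequence set some of these genes apart before any level is compared. All 7 measured genes but *mt-Nd6* lie on the plus strand of the mitochondrial chromosome, in the order *mt-Nd1* (2751 to 3707, GRCm38), *mt-Nd2* (3914 to 4951), *mt-Co1* (5328 to 6872), *mt-Nd4* (10167 to 11544), *mt-Nd5* (11742 to 13565) and *mt-Cytb* (14145 to 15288). *mt-Nd6* is encoded on the minus strand (13552 to 14070) and overlaps the end of *mt-Nd5*. Whether the counting kept the strands apart is not given.

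A run of mtDNA is copied into chromosome 1 (24611535 to 24616197, minus strand), where the annotation lists 7 neighbouring pseudogenes. *Gm28661* matched *mt-Co2* at 681 of 681 bases, *Gm28437* matched *mt-Co3* at 783 of 783 and *Gm10925* matched *mt-Atp6* at 678 of 678. *Gm28439* matched the first 876 bases of *mt-Nd4* without a difference, while *Gm29216* matched the last 492 bases of *mt-Co1* at 486. Cut into stretches of 100 bases, *mt-Co2* and *mt-Atp6* shared 99.5% of their stretches with a nuclear transcript and *mt-Co3* shared 99.9%. *mt-Nd4* shared 60.8%, *mt-Co1* 30.8% and *mt-Nd2* 3.2%, whereas *mt-Nd1*, *mt-Nd5*, *mt-Nd6* and *mt-Cytb* shared none. Of the other protein genes without a row, *mt-Nd3* shared 97.6% and *mt-Nd4l* 98.5%, while *mt-Atp8* shared none with a transcript, and genomic sequence outside transcripts was not searched. Whether the copies bear on the missing rows was not tested.

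All differences between *mt-Co1* and *Gm29216* lie at the start of the copy, and the stretch is shown because it is where reads of *mt-Co1* and of the copy can be told apart. Capitals mark the 6 differing bases. The first is T1056A, counted from 1 at the first base of *mt-Co1*, and both stretches read 5′ to 3′ along the gene (GRCm38): chrM:6381-6440, plus strand, and chr1:24616138-24616197, minus strand.
mt-Co1: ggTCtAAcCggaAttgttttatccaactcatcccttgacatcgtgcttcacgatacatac
Gm29216: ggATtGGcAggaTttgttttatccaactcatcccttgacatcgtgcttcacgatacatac
The copies that had a row were near the floor of the tables. *Gm29216* lay between 0.52 and 2.97 CPM over all 45 libraries, *Gm28437* between 0.27 and 1.06 CPM and *Gm28661* between 0.20 and 1.03 CPM, and none of the 3 passed the test in any of the 10 comparisons by edgeR.

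Levels between genes were compared per kilobase of gene. In gastrocnemius, *mt-Co1*, which holds the catalytic site of complex IV, had a median of 15697 CPM per kilobase over the 23 libraries (11878 to 19371). *mt-Nd1* followed with 2988 CPM per kilobase (2034 to 3425) and *mt-Cytb* with 1364 (1039 to 1652). These 3 ranges and that of *mt-Nd2*, at a median of 316 CPM per kilobase, did not overlap. *mt-Nd2*, *mt-Nd5* (279) and *mt-Nd4* (269) overlapped, with *mt-Nd2* above *mt-Nd5* in 21 of 23 libraries and *mt-Nd5* above *mt-Nd4* in 20 of 23. *mt-Nd6*, from the minus strand, was lowest at 189 CPM per kilobase. These levels divide by the whole gene, so reads lost to the copies would lower *mt-Nd4* and *mt-Co1* here, and the place of *mt-Nd4* in the order could change.

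In spinalis the order was *mt-Co1* (11994 CPM per kilobase), *mt-Nd1* (2830), *mt-Cytb* (1351), *mt-Nd2* (371), *mt-Nd4* (301), *mt-Nd5* (225) and *mt-Nd6* (117). Each gene lay above the next in 22 of 22 libraries, except that *mt-Nd2* lay above *mt-Nd4* in 20 of 22. *mt-Nd4* and *mt-Nd5* thus stood in the opposite order in the 2 tables, which was not tested. *mt-Co1* alone made up 81.6% ± 0.48 (SD, n = 6) of the summed counts of the 7 genes in WT-sham, with 82.0% ± 0.51 (n = 6) for KO-sham. It made up 77.0% ± 3.61 (n = 5) in WT-empty and 75.0% ± 1.23 (n = 5) in KO-empty, so the summed counts are mostly those of *mt-Co1*.

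Some libraries stood apart from their group, and calls of the 7 genes that changed without them are given both ways. In WT-ORX mice 3 and 4, the transfer RNA gene *mt-Tm* lay at 5.21 and 4.94 CPM, against 0.16 to 0.37 CPM in the other 4 mice. *mt-Tp* lay at 39.8 and 41.5 CPM in this pair, against 12.4 to 16.6. *mt-Nd1* stood at 3079 and 3033 CPM in the pair and at 2033 to 2278 CPM in the other 4. *mt-Nd2* (399 and 398 CPM against 260 to 285), *mt-Cytb* (1729 and 1701 against 1189 to 1344) and *mt-Nd6* (130 and 118 against 65.9 to 79.6) split in the same way, while *mt-Co1* was the highest of its group in the pair by less, with 23666 and 23099 CPM against 18539 to 21128. The pair was singled out after the values were seen, by a gene of mtDNA, so leaving it out is not independent of the result.

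In spinalis the level of mitochondrial ribosomal RNA differed widely within groups, and the part of the depletion step in this was not tested. *mt-Rnr1*, the small mitochondrial ribosomal RNA, ran from 431 to 10640 CPM over the 22 libraries, against 5220 to 10964 CPM in gastrocnemius. It was lowest in WT-empty mice 7 and 4 (431 and 523 CPM), KO-DHT mice 6 and 25 (1001 and 1228) and WT-DHT mice 50 and 39 (1197 and 1602). Within WT-empty, *mt-Nd2* was 201 and 206 CPM in mice 7 and 4 and 423 CPM in mouse 14, which had the most *mt-Rnr1* of that group (6260 CPM). *mt-Cytb* was 937 and 1047 CPM in that pair against 1625 CPM in mouse 14, and *mt-Nd1* 1911 and 2158 against 2586. *mt-Co1* did not follow: it was 14670 and 17417 CPM in the pair and 14520 CPM in mouse 14. Across the 22 libraries the summed level of the 7 genes had a Pearson r of 0.282 with *mt-Rnr1* (Spearman 0.283), against 0.791 (Spearman 0.791) across the 23 of gastrocnemius, as a description of libraries that share their groups.

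**Figure D1:**
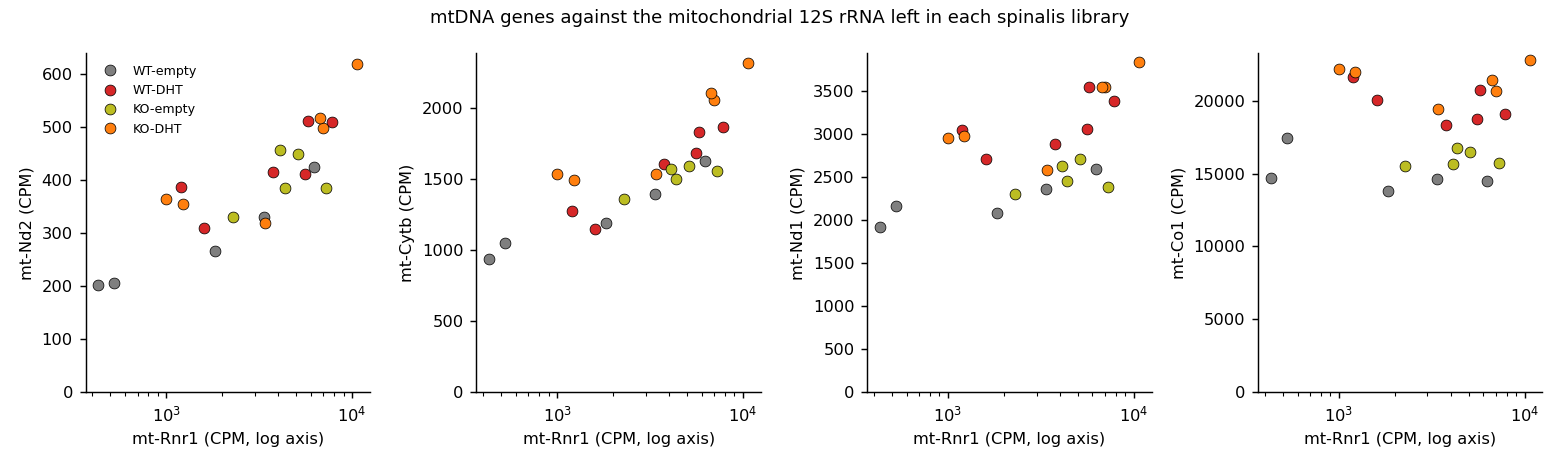
CPM of *mt-Nd2*, *mt-Cytb*, *mt-Nd1* and *mt-Co1* (linear axes) against *mt-Rnr1* (log axis) in the 22 spinalis libraries, coloured by group. Within WT-empty, *mt-Nd2* and *mt-Cytb* were lowest in mouse 7 (201 and 937 CPM), which had the least *mt-Rnr1*, while *mt-Co1* separated the DHT from the empty groups at any level of *mt-Rnr1*.

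As a share of all counts in a library, the 7 genes took 3.19% ± 0.147 (SD, n = 6) in WT-sham, from 2.95 to 3.36%, with a median of 3.22%. In WT-ORX the share was 2.65% ± 0.229 (n = 6), from 2.34 to 2.89%, so every WT-ORX library lay below every WT-sham library. KO-sham took 3.30% ± 0.351 (n = 6), from 2.68 to 3.56% with a median of 3.45%. The 5 KO-ORX libraries took 2.59, 2.75, 2.64, 2.37 and 2.46%, and the highest of them lay above the lowest KO-sham library, mouse 1, and below the other 5.

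In spinalis the 5 WT-empty libraries took 2.11, 1.85, 1.99, 1.92 and 1.91% of counts (mice 4, 7, 14, 35 and 49), with a mean of 1.95% ± 0.101. WT-DHT took 2.46% ± 0.193 (n = 6), from 2.11 to 2.64%, and mouse 39 alone fell within the WT-empty range. The KO-empty libraries took 2.15, 2.12, 2.38, 2.12 and 2.29% (mice 17, 33, 61, 62 and 64), all above the WT-empty range, and KO-DHT took 2.84% ± 0.140 (n = 6), from 2.59 to 3.01%, all above the KO-empty range. No p is given for these sums. In bulk muscle, fewer mitochondria or fewer fibres rich in them cannot be told apart from less RNA per mitochondrion.

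**Figure D2:**
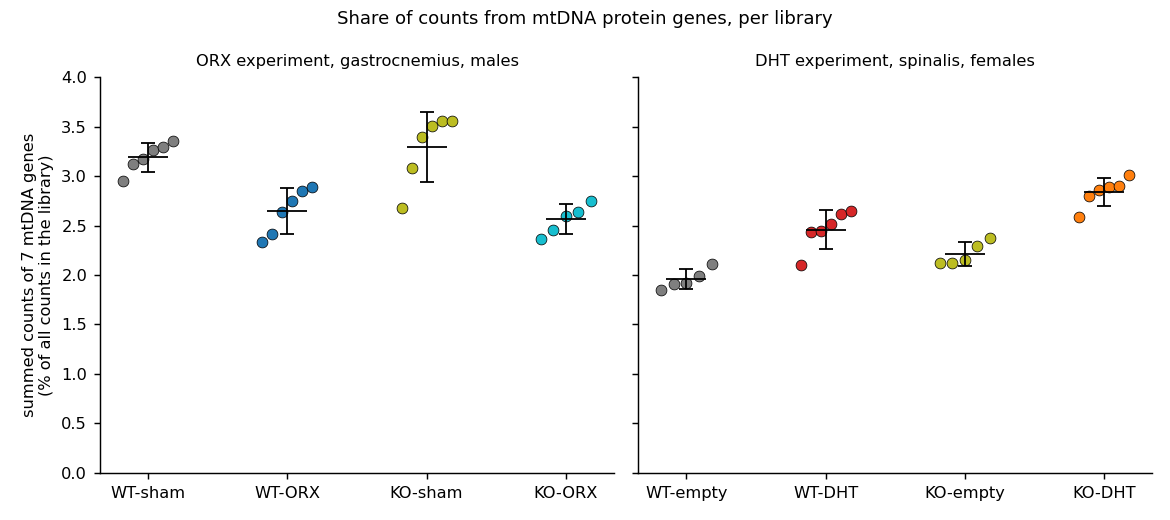
Summed counts of the 7 mtDNA genes as a percentage of all counts in each library, 1 point per mouse, with the group mean and SD. The share was lower in the ORX than in the sham groups and higher in the DHT than in the empty groups, with means of 3.19 and 2.65% in WT gastrocnemius and 1.95 and 2.46% in WT spinalis.

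The first question put to the counts was what loss of testicular androgens did in WT gastrocnemius. *mt-Co1* lay at 24586 to 28455 CPM in WT-sham (median 26244) and at 18539 to 23666 CPM in WT-ORX (median 20841). The groups did not overlap, with 6 of 6 WT-ORX libraries below the lowest sham library. *mt-Co1* fell by 0.32 on the log2 scale (standard error 0.0640, adjusted p 0.0011), and it was the only 1 of the 7 genes called by edgeR, DESeq2 or limma at an adjusted p of at most 0.01, where 5.45% of all genes were called. *mt-Nd1*, a membrane subunit of complex I, lay at 2859 to 3086 CPM in WT-sham (median 2974) and at 2033 to 3079 CPM in WT-ORX (median 2247). Its groups overlapped because of mice 3 and 4, and its log2 fold change of -0.27 did not pass (adjusted p 0.0457).

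The other complex I genes and *mt-Cytb* showed the same split within WT-ORX. Their log2 fold changes ran from -0.25 for *mt-Nd5* (adjusted p 0.0644) and -0.23 for *mt-Cytb* (0.0899) to -0.10 for *mt-Nd6* (0.726), and for each of them 4 of 6 WT-ORX libraries lay below the lowest sham library. The median over the 7 genes was -0.23, against 0.01 over all genes. Without mouse 3 or without mouse 4, *mt-Nd1* was called as well (-0.34 in each case, adjusted p 0.0069 and 0.00998). Without both, all 7 were called, from -0.45 for *mt-Nd1* and -0.41 for *mt-Nd2* and *mt-Nd5* to -0.39 for *mt-Nd6* and *mt-Cytb*, -0.40 for *mt-Co1* and -0.32 for *mt-Nd4*. Of all genes, 636 were called in that fit, against 955 with all libraries. The fit with *mt-Rnr1* as a covariate was not planned beforehand. In it *mt-Co1* no longer passed (-0.18, adjusted p 0.015), and *mt-Nd4* (0.04) and *mt-Nd6* (0.18) turned above 0. *mt-Rnr1* is itself a gene of mtDNA and was -0.40 after ORX in WT, so the covariate can take up part of a change.

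In KO gastrocnemius more of the 7 genes passed. *mt-Co1* lay at 24251 to 29928 CPM in KO-sham (median 29020), and the 5 KO-ORX libraries stood at 20339, 21130, 20978, 18351 and 18762 CPM, all below the sham range. *mt-Co1* fell by 0.48 on the log2 scale (standard error 0.0675, adjusted p 2.24e-05). *mt-Nd1* lay at 2582 to 3278 CPM in KO-sham (median 2984) and at 2210, 2349, 2177, 1947 and 2009 CPM in KO-ORX. It fell by 0.45 (standard error 0.0906, adjusted p 0.00155), again with 5 of 5 libraries below the sham range.

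Of the 7 genes, 4 were called lower after ORX in KO by edgeR and none higher, where 5.57% of all genes were called. The other 2 were *mt-Nd5*, a proton-pumping subunit of complex I (-0.39, adjusted p 0.00486), and *mt-Cytb*, the only complex III subunit that mtDNA encodes (-0.37, adjusted p 0.00581). *mt-Nd5* ran from 509 to 675 CPM in KO-sham and stood at 462, 507, 484, 422 and 413 CPM in KO-ORX. *mt-Cytb* ran from 1541 to 1890 CPM in KO-sham and from 1196 to 1480 CPM in KO-ORX. Neither gene overlapped between the groups, and nor did *mt-Nd4* (-0.35, adjusted p 0.0144), which DESeq2 called in addition. *mt-Nd2* (-0.30, adjusted p 0.0618) and *mt-Nd6* (-0.32, adjusted p 0.142) overlapped and did not pass. The median over the 7 was -0.37 against 0.01 over all genes. Without WT-ORX mice 3 and 4, which are in neither group compared but share the fit, *mt-Nd2* (adjusted p 0.00447) and *mt-Nd4* (0.000993) were called too.

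The calls of *mt-Nd5* and *mt-Cytb* turned on single libraries. Without any 1 of KO-sham mice 3, 4 and 6 or KO-ORX mice 1, 4 and 5, both were lost and 2 genes were called, *mt-Co1* and *mt-Nd1*. The log2 fold change of *mt-Nd5* was then -0.38, -0.35, -0.36, -0.39, -0.36 and -0.35, and that of *mt-Cytb* was -0.36, -0.35, -0.35, -0.38, -0.33 and -0.35. Without KO-sham mouse 2 only *mt-Cytb* was lost (-0.38, adjusted p 0.0111). *mt-Nd4* was called without KO-ORX mouse 2 (-0.41) and without WT-ORX mouse 4 or 5 (-0.35 in each case).

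*mt-Co1* thus fell in both genotypes, and the test of the difference between them did not pass. The genotype by ORX interaction of *mt-Co1* was -0.16 (95% interval -0.34 to 0.02, adjusted p 0.608) and that of *mt-Nd1* -0.18 (-0.43 to 0.06, adjusted p 0.668). For *mt-Nd5* it was -0.14 (-0.38 to 0.10, adjusted p 0.754) and for *mt-Cytb* -0.15 (-0.38 to 0.09, adjusted p 0.737). All 7 values lay below 0, from -0.22 for *mt-Nd6* to -0.10 for *mt-Nd2*. None of the 7 was called by edgeR at an adjusted p of at most 0.05, none had an unadjusted p under 0.05, and DESeq2 and limma called 0. Of all genes, 0.0228% were called, or 4 genes. That number was 38 without KO-ORX mouse 3, 24 without WT-ORX mouse 2, 73 with *mt-Rnr1* as a covariate and 125 with DESeq2. Without WT-ORX mice 3 and 4 the sign turned for *mt-Nd2* (0.11), *mt-Nd5* (0.02), *mt-Nd6* (0.08) and *mt-Cytb* (0.02).

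The loss of α-actinin-3 by itself was not followed by a called difference in these genes in gastrocnemius. Between KO-sham and WT-sham, edgeR, DESeq2 and limma called 0 of the 7, where edgeR called 5.30% of all genes. An unadjusted p under 0.05 was found for 1 of the 7 and for 4082 of all 17514 genes. Log2 fold changes ran from -0.05 for *mt-Nd2* to 0.21 for *mt-Nd6*, and the lowest adjusted p was that of *mt-Nd5* (0.20, adjusted p 0.13), with 4 of 6 KO-sham libraries above the highest WT-sham library. After ORX, the same 3 tools called 0 of the 7 between KO and WT, where edgeR called 3.80% of all genes. Again 1 of the 7 had an unadjusted p under 0.05, as had 3313 of all 17514 genes. Values there ran from -0.21 for *mt-Nd1* (adjusted p 0.189) to 0.07 for *mt-Nd5*, and all 7 genes overlapped between the groups. With *mt-Rnr1* as a covariate 1 gene passed in each, *mt-Nd5* in sham (0.22, adjusted p 0.0093) and *mt-Nd1* after ORX (-0.26, adjusted p 0.00582).

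In the second experiment, the added androgen met the same genes from the other side. In WT spinalis *mt-Co1* stood at 17417, 14670, 14520, 13830 and 14616 CPM in WT-empty (mice 4, 7, 14, 35 and 49) and at 18349 to 21596 CPM in WT-DHT (median 19563). All 6 WT-DHT libraries lay above the highest WT-empty library, mouse 4, which itself stood apart from the other 4. *mt-Co1* rose by 0.40 on the log2 scale (standard error 0.0678, adjusted p 0.000124). *mt-Nd1* stood at 2158, 1911, 2586, 2081 and 2354 CPM in the same WT-empty mice and at 2707 to 3543 CPM in WT-DHT (median 3045). It rose by 0.48 (standard error 0.0972, adjusted p 0.00074), with 6 of 6 libraries above the WT-empty range.

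These were 2 of the 7 genes, where 11.3% of all genes were called, and DESeq2 and limma also called 2. *mt-Nd2* had the largest value, 0.57, with the largest standard error of the 7 (0.184, adjusted p 0.0325), and its groups overlapped. *mt-Nd4* (0.35, adjusted p 0.0712), *mt-Cytb* (0.34, 0.109), *mt-Nd6* (0.30, 0.161) and *mt-Nd5* (0.17, 0.39) overlapped too and did not pass. The median over the 7 was 0.35, against -0.01 over all genes. Without WT-empty mouse 14, *mt-Nd2* was called as well (0.75, adjusted p 0.00446). Without the 6 libraries lowest in *mt-Rnr1*, chosen after the values were seen, *mt-Co1* was called (0.43) and *mt-Nd1* was not (0.46, adjusted p 0.015).

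In KO spinalis *mt-Co1* stood at 15482, 15675, 16484, 15692 and 16762 CPM in KO-empty (mice 17, 33, 61, 62 and 64) and at 19451 to 22800 CPM in KO-DHT (median 21706). It rose by 0.42 (standard error 0.0678, adjusted p 0.000211), with 6 of 6 KO-DHT libraries above the KO-empty range. It was the only 1 of the 7 called by edgeR or limma, where 4.62% of all genes were called. *mt-Nd1* stood at 2302, 2628, 2709, 2378 and 2448 CPM in KO-empty and at 2579 to 3837 CPM in KO-DHT (median 3257), and 5 of 6 KO-DHT libraries lay above the KO-empty range. Its value of 0.38 did not pass with edgeR (adjusted p 0.0133) and passed with DESeq2 (adjusted p 0.0022). Without KO-DHT mouse 40, the lowest of its group for both genes, edgeR called it too (0.43, adjusted p 0.00448).

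Among the rest, *mt-Nd4* had a value of 0.40 (adjusted p 0.056) and *mt-Cytb* of 0.28 (0.233), and neither passed. *mt-Nd2* (0.15), *mt-Nd5* (0.15) and *mt-Nd6* (-0.02) had adjusted p values of 0.67, 0.488 and 0.954. The median over the 7 genes was 0.28, against -0.01 over all genes. With *mt-Rnr1* as a covariate 4 genes passed in KO: *mt-Nd1* (0.40), *mt-Nd4* (0.43), *mt-Cytb* (0.31) and *mt-Co1*. The share of 4.62% of all genes belongs to the fit without the covariate. The values of *mt-Nd2* ran from 319 to 617 CPM within KO-DHT, and its 2 ends were mouse 40 and mouse 16, which had the most *mt-Rnr1* of all spinalis libraries (10640 CPM).

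*mt-Co1* thus rose with DHT in both genotypes, and the test of the difference did not pass. The genotype by DHT interaction of *mt-Co1* was 0.02 (95% interval -0.16 to 0.21, adjusted p 0.945), and that of *mt-Nd1* was -0.11 (-0.37 to 0.16, adjusted p 0.775). The widest interval was that of *mt-Nd2* (-0.42, from -0.92 to 0.09, adjusted p 0.48). The 7 values ran from -0.42 to 0.05. None of the 7 was called by edgeR, none had an unadjusted p under 0.05, DESeq2 and limma called 0, and 3.24% of all genes were called.

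Between the genotypes in spinalis, all 7 genes lay above 0 in KO with either implant and none passed. With empty implants 4 of the 7 had an unadjusted p under 0.05, as had 3969 of all 16987 genes. Of the 7, 0 were called by edgeR, DESeq2 and limma, where edgeR called 4.25% of all genes. *mt-Nd6*, the complex I subunit from the minus strand, stood at 43.3, 43.3, 61.9, 45.2 and 55.4 CPM in WT-empty mice 4, 7, 14, 35 and 49. In KO-empty it stood at 59.2, 65.3, 75.4, 86.4 and 65.4 CPM (mice 17, 33, 61, 62 and 64), so 4 of 5 lay above the WT-empty range. Its value was 0.50 (standard error 0.149, adjusted p 0.0366), that of *mt-Nd5* 0.40 (adjusted p 0.0538) and that of *mt-Co1* 0.09 (adjusted p 0.462). *mt-Rnr1* had a value of 0.90 and did not pass (adjusted p 0.444), and its part in the 7 values was not tested beyond the covariate, under which 0 of the 7 passed.

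With DHT implants the KO against WT values ran from 0.06 for *mt-Nd1* to 0.38 for *mt-Nd5* (adjusted p 0.0251). Of the 7 genes, 0 were called by edgeR, DESeq2 and limma, where edgeR called 11.6% of all genes. An unadjusted p under 0.05 was found for 2 of the 7, as for 5034 of all 16987 genes. *mt-Nd5* ran from 311 to 448 CPM in WT-DHT and from 350 to 628 CPM in KO-DHT, with 5 of 6 KO-DHT libraries above the WT range. Without KO-DHT mouse 40, the lowest of them, *mt-Nd5* was called (0.46, adjusted p 0.00361). *mt-Nd4* (0.35, adjusted p 0.0596) and *mt-Cytb* (0.23, adjusted p 0.283) passed only with *mt-Rnr1* as a covariate (0.34 and 0.22, adjusted p 0.00541 and 0.00604).

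**Figure D3:**
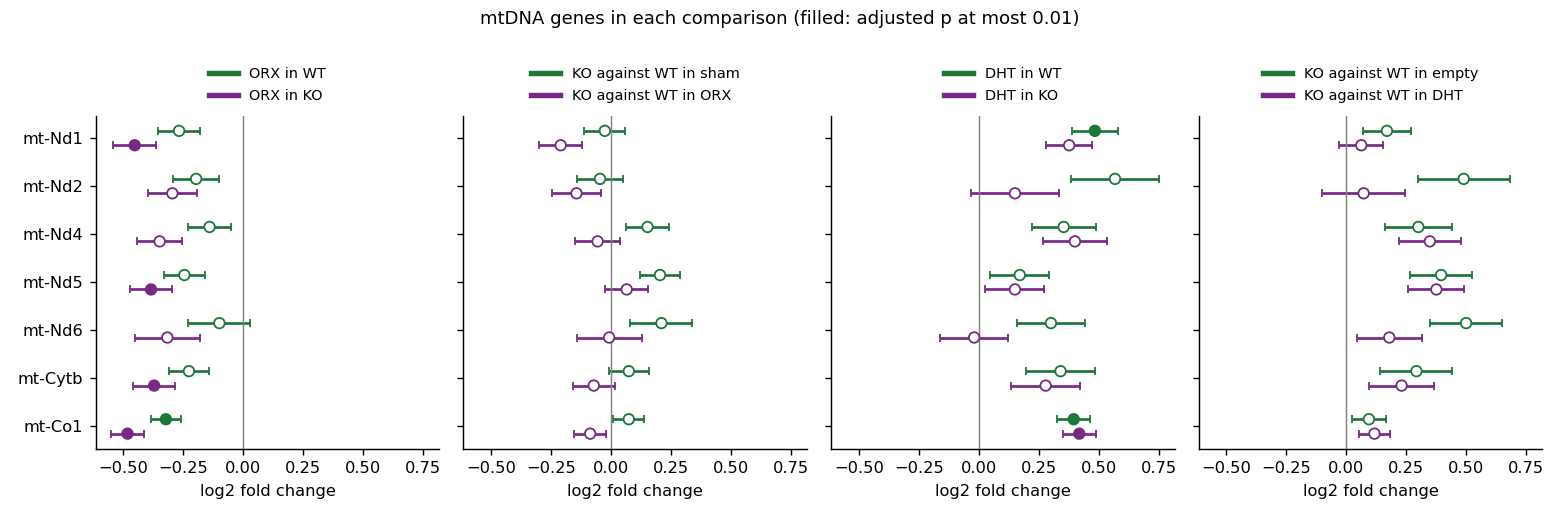
Log2 fold changes of the 7 mtDNA genes with standard errors in the 8 treatment and genotype comparisons, filled where the adjusted p was at most 0.01. All 7 lay below 0 after ORX in both genotypes, *mt-Co1* alone was filled in all 4 treatment comparisons (-0.32, -0.48, 0.40 and 0.42), and no gene was filled between genotypes.

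Since the mtDNA genes hold a large share of the counts that scale the libraries, the fits were repeated with library sizes and scaling factors from nuclear genes alone. The genes called were the same in each of the 10 comparisons. *mt-Co1* moved from -0.32 to -0.33 for ORX in WT and from -0.483 to -0.485 in KO, and it stayed at 0.40 for DHT in WT and moved from 0.42 to 0.43 in KO. *mt-Nd1* was -0.45 for ORX in KO and 0.48 for DHT in WT with either scaling. Scaling by total counts alone moved all genes together, with a median over all genes of 0.121 for ORX in KO and 0.088 for KO against WT with DHT. Relative to that median, the ORX values in KO were -0.50 for *mt-Co1*, -0.47 for *mt-Nd1*, -0.40 for *mt-Nd5* and -0.39 for *mt-Cytb*, close to those under TMM. The calls of *mt-Nd5* and *mt-Cytb* were lost there (adjusted p 0.0248 and 0.0302), as they were without some single libraries. Taking off the median treats the median gene as unchanged, so the cause of the lost calls was not tested. In KO against WT with DHT, *mt-Nd5* was called under scaling by total counts at 0.45. It stood at 0.36 relative to the median, against 0.38 under TMM. No other comparison changed the set of the 7 genes called under this scaling.

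The share of all counts carries what the most abundant nuclear genes do. With the 10 most abundant nuclear genes of each experiment taken out of the total, the mean share of the 7 genes was 4.22% in WT-sham, 3.59% in WT-ORX, 4.39% in KO-sham and 3.44% in KO-ORX. In spinalis it was 2.96% in WT-empty, 3.56% in WT-DHT, 3.17% in KO-empty and 4.02% in KO-DHT, so the order of the group means within each experiment was kept. With all genes of the mitochondrial chromosome counted, the means were 14.7, 12.3, 15.1 and 13.0% in gastrocnemius, and 5.99, 8.59, 9.21 and 10.03% in spinalis. There KO-ORX stood above WT-ORX and KO-empty above WT-DHT, the reverse of the order of the 7 genes, with *mt-Rnr2*, the large ribosomal RNA, as the main part of the count.

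The ribosomal RNAs themselves did not pass in any comparison. *mt-Rnr1* was -0.40 after ORX in WT (adjusted p 0.0525) and -0.26 in KO (0.246), and *mt-Rnr2* was -0.29 (0.125) and -0.28 (0.145). With DHT, *mt-Rnr1* was 0.79 in WT with a standard error of 0.629. Of the transfer RNAs that had a row, *mt-Tp*, which is read from the minus strand next to the control region, rose with DHT in KO by 1.59 (standard error 0.303, adjusted p 0.00125). It stood at 9.82, 10.3, 11.2, 16.2 and 10.5 CPM in KO-empty (mice 17, 33, 61, 62 and 64) and at 16.3 to 62.6 CPM in KO-DHT (median 32.1). In WT it was -0.08 (adjusted p 0.901), and the difference between the genotypes passed at 1.67 (standard error 0.416, adjusted p 0.0229). That difference turned on WT-empty mouse 4 (39.3 CPM, against 16.3 to 19.5 in the other 4), without which it did not pass (1.37, adjusted p 0.0611), while the rise in KO passed without any 1 library (1.34 to 1.74). Without that mouse and KO-empty mouse 62 together, the difference was 1.53 (adjusted p 0.0367). *mt-Tc*, *mt-Tm* and *mt-Tq* passed in no comparison, and their counts were low (0 to 211 in a library for *mt-Tm*).

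The nuclear subunits that share complexes with these products were given as lists. After ORX in WT, edgeR called lower 2 of 37 complex I subunits, 1 of 9 of complex III, 3 of 12 of complex IV and 1 of 17 of complex V, and none higher, against 5.45% of all genes called. Among them were *Ndufs4* (-0.32) of complex I, *Uqcrc1* (-0.24) of complex III, *Cox5a* (-0.31), *Cox4i1* (-0.26) and *Cox5b* (-0.23) of complex IV and *Atp5a1* (-0.22) of complex V. After ORX in KO, 8, 4, 2 and 5 of these 37, 9, 12 and 17 genes were lower and none higher, with list medians of -0.19, -0.19, -0.20 and -0.20 against 0.01 over all genes, of which 5.57% were called. *Ndufa8* (-0.32), *Uqcrc1* (-0.41), *Cox4i1* (-0.34, adjusted p 0.000626) and *Atp5a1* (-0.29) were among them. In *mt-Co1* the fall in KO was -0.48, larger in size than each of these 4 nuclear values, and differences between genes were not tested.

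With DHT in WT 1 of 37 complex I subunits was higher, 1 of 9 of complex III, 3 of 12 of complex IV with 1 lower, and 0 of 17 of complex V, against 11.3% of all genes. Their medians were 0.097, 0.077, 0.145 and 0.119. The single complex I gene was *Ndufs4* (0.83, adjusted p 5.77e-10), and in complex IV *Cox7a1* (0.54), *Ndufa4* (0.30) and *Cox4i1* (0.29) rose beside *mt-Co1*. With DHT in KO, 6 of 37, 2 of 9, 5 of 12 and 2 of 17 were higher and none lower, with medians of 0.18, 0.20, 0.26 and 0.18 against -0.01 over all genes, of which 4.62% were called. *Ndufs4* (0.43), *Uqcrc1* (0.46), *Ndufa4* (0.41), *Cox7a1* (0.52) and *Atp5g1* (0.39) were among them. The interaction passed for *Ndufs4* (-0.40, adjusted p 0.0102) and for *Cox6a2*, a muscle subunit of complex IV (0.38, adjusted p 0.0485), and for no other gene of the 4 lists. These were 1 of 37 complex I and 1 of 12 complex IV subunits, where 3.24% of all genes passed.

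Between genotypes, where none of the 7 mtDNA genes was called, some nuclear partners were. In sham, against 5.30% of all genes, 4 of 37 complex I, 3 of 9 complex III, 0 of 12 complex IV and 2 of 17 complex V subunits were higher in KO and none lower, among them *Ndufs1* (0.33), *Uqcrc2* (0.27) and *Atp5h* (0.33). After ORX, against 3.80%, 2 of 37 complex I subunits were higher, *Ndufs1* (0.27) and *Ndufb2* (0.39), and 0 of the other 3 lists by edgeR. With empty implants *Ndufs1* alone of these lists was higher (0.28), against 4.25% of all genes. With DHT implants 12 of 37, 6 of 9, 2 of 12 and 7 of 17 were higher in KO and 1, a complex I subunit, was lower, against 11.6% of all genes. Their medians were 0.21, 0.32, 0.21 and 0.25, against 0.18 over the 7 mtDNA genes and 0.01 over all genes.

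The machinery that copies and transcribes mtDNA is made of nuclear genes. Of 17 genes for transcription and replication, edgeR called 0 in either genotype after ORX (5.45% of all genes in WT and 5.57% in KO), with *Tefm*, the elongation factor, at -0.31 in KO (adjusted p 0.0146). With DHT in WT, where 11.3% of all genes were called, 3 of 17 were lower while *mt-Co1* and *mt-Nd1* rose: *Polg*, the mtDNA polymerase (-0.31, adjusted p 0.000865), *Twnk*, its helicase (-0.76, adjusted p 0.00444), and *Mterf2* (-0.35, adjusted p 0.00172). With DHT in KO 0 of 17 were called (4.62% of all genes). The interaction passed for *Mterf2* (0.47, adjusted p 0.0134), as 1 of 17 against 3.24% of all genes. *Mterf2* was higher in KO than in WT in sham (0.40), as 1 of 17 against 5.30% of all genes. It was higher with DHT (0.64) together with *Tefm* (0.35), as 2 of 17 against 11.6%.

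Of 17 measured genes for the processing and stability of mitochondrial RNA, 2 fell after ORX in KO and all 17 lay below 0, where 5.57% of all genes were called. Of the same 17, 1 was called with DHT in WT (11.3% of all genes), 2 in KO-DHT against WT-DHT (11.6%), 1 in KO-ORX against WT-ORX (3.80%) and 1 in the DHT interaction (3.24%). The genes that fell after ORX in KO were *Lrpprc*, which stabilises mitochondrial messenger RNAs (-0.27, adjusted p 0.00378), and *Grsf1*, an RNA-binding protein of the mitochondrial RNA granules (-0.21, adjusted p 0.00459). In WT *Lrpprc* was -0.22 and did not pass (adjusted p 0.0121). *Hsd17b10*, a subunit of the enzyme that cuts transfer RNAs from the precursors, fell with DHT in WT (-0.35, adjusted p 0.00287). It was higher in KO than in WT with DHT (0.40) and passed the interaction (0.46, adjusted p 0.0251), and *Grsf1* was higher in KO-DHT than in WT-DHT as well (0.19). *Fastk* was lower in KO-ORX than in WT-ORX (-0.29, adjusted p 0.000512).

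Among 15 regulators of mitochondrial biogenesis, *Esrra*, the nuclear receptor that activates many respiratory genes, went with *mt-Co1* in the 4 treatment comparisons. It fell after ORX in WT (-0.40, adjusted p 2.05e-05) and in KO (-0.46, adjusted p 1.28e-05), and rose with DHT in WT (0.34, adjusted p 0.00733) and in KO (0.56, adjusted p 0.000153). *Perm1*, a muscle regulator that acts with it, fell after ORX in WT (-0.41) and in KO (-0.42) and was higher in KO than in WT with DHT (0.33). No other gene of the 15 passed. The calls after ORX were 2 of 15 in WT and in KO, against 5.45 and 5.57% of all genes. With DHT they were 1 of 15 in WT and in KO, against 11.3 and 4.62%. In KO-DHT against WT-DHT 1 of 15 was called, against 11.6%. Of 12 measured genes for the assembly of complex IV, *Taco1*, the translational activator of *mt-Co1*, fell after ORX in KO (-0.33, adjusted p 0.00455), as did *Cox10*, which makes its haem (-0.30, adjusted p 0.0091). *Taco1* was also higher in KO than in WT with DHT (0.38, adjusted p 0.00616), and no gene of this list passed elsewhere. That makes 2 of 12 against 5.57% of all genes and 1 of 12 against 11.6%.

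Markers of fibre types and other cells were read beside these results. Of 9 markers of oxidative and slow fibres, *Mb*, the oxygen store of oxidative fibres, fell after ORX in WT (-0.50, adjusted p 0.0092) and in KO (-0.56, adjusted p 0.00552), and it rose with DHT in WT (0.79, adjusted p 0.000498). *Mb* went against most of its list, of which 7 of 9 lay above 0 after ORX in WT (median 0.30) and 6 of 9 in KO (median 0.23). None of the other 8 passed, and their summed CPM with *Mb*, led by *Myh2*, ran from 2901 to 5025 in gastrocnemius and from 2372 to 6027 in spinalis. With DHT 8 of the 9 lay below 0 in each genotype (median -0.99 in WT and -1.56 in KO), while *mt-Co1* rose. In KO-empty against WT-empty all 9 lay above 0 (median 0.55), as did the 7 mtDNA genes, and none passed. Of 8 fast-fibre markers, *Mylpf* (0.44) and *Pvalb* (0.29) rose and *Myh1* fell (-0.61) after ORX in WT, and *Myh1* (-0.61), *Tnni2* (-0.26) and *Tnnt3* (-0.20) fell in KO. With DHT *Atp2a1* fell in WT (-0.37), where 5 of the 8 lay above 0, and *Tnni2* (0.36) and *Tnnc2* (0.69) rose in KO. *Tnnc2* (-0.71) and *Tnnt3* (-0.37) were lower in KO-empty than in WT-empty, and *Tnnt3* was lower in KO-ORX than in WT-ORX (-0.41). Of all genes, 5.45% were called after ORX in WT, 5.57% in KO, 11.3% with DHT in WT and 4.62% in KO. The share was 4.25% in KO-empty against WT-empty and 3.80% in KO-ORX against WT-ORX.

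Brown adipocytes are rich in mitochondria, and their markers were present in some spinalis samples. The summed CPM of *Ucp1*, *Cidea* and *Elovl3* ran from 1.06 to 45.3 in WT-empty, 1.19 to 43.9 in WT-DHT, 6.09 to 52.9 in KO-empty and 1.21 to 225 in KO-DHT, where mouse 63 had 225 and the other 5 at most 3.94. *mt-Co1* in that mouse was 20676 CPM, the second lowest of its group, while its share of counts in the 7 genes was the second highest (2.90%). *Ucp1* and *Elovl3* had no row in the gastrocnemius table, and *Cidea* there was at most 2.03 CPM. None of these markers passed in any comparison. The part of brown fat in the spinalis results was not tested.

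Of the other marker lists, white adipocytes (4 genes, led by *Cfd*) summed to 71.1 to 302 CPM in gastrocnemius and 101 to 645 CPM in spinalis, where *Cfd* fell with DHT in WT (-1.20, adjusted p 0.00898). Endothelial markers (4, led by *Pecam1*) summed to 170 to 246 and 131 to 225 CPM, and *Pecam1* rose with DHT in WT (0.33) as *mt-Co1* and *mt-Nd1* did. Macrophage and leukocyte markers (4, led by *Csf1r*) summed to 44.3 to 69.4 and 39.0 to 115 CPM, with *Csf1r* lower after ORX in WT (-0.31), where the other 3 lay above 0, and in KO-sham against WT-sham (-0.29). Fibroblast and tendon markers (5, led by *Col3a1*) summed to 505 to 2422 and 643 to 2095 CPM, with *Pdgfra* lower after ORX (-0.23) and with DHT (-0.44) in WT, where 3 of 5 lay above 0 with DHT (median 0.31), and *Scx* lower in KO-DHT than in WT-DHT (-0.88). After ORX in KO all 5 lay above 0 (median 0.59) and none passed, with sums of 2422 and 1439 CPM in KO-ORX mice 1 and 2 and of 627, 856 and 696 CPM in mice 3, 4 and 5. Schwann cell markers (4, led by *Pmp22*) and red blood cell genes (5, led by *Hbb-bs*) held no gene that passed, at 45.6 to 90.9 and 236 to 692 CPM in gastrocnemius and 35.3 to 65.6 and 66.8 to 704 CPM in spinalis. In WT the red blood cell genes lay on the side of the mtDNA genes. After ORX 5 of 5 lay below 0 (median -0.41) and with DHT 5 of 5 lay above 0 (median 0.72). In KO-empty against WT-empty 5 of 5 lay above 0 as well (median 0.92). Other comparisons went the other way. In KO with DHT 5 of 5 lay below 0 (median -0.51), as in KO-DHT against WT-DHT (median -0.43). After ORX in KO 4 of 5 lay above 0 (median 0.01), and in KO-ORX against WT-ORX 5 of 5 did (median 0.46). Of all genes, 5.45% were called after ORX in WT and 11.3% with DHT in WT. The share was 5.30% in KO-sham against WT-sham and 11.6% in KO-DHT against WT-DHT. No marker with a row was at 0 in any library, and the part of these cells in the mtDNA results was not tested.

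How alike the genes ran across libraries was measured against the log2 of their summed CPM. In gastrocnemius (n = 23 libraries of 4 groups) Pearson r was 0.997 for *mt-Co1*, which dominates the sum, 0.946 for *mt-Cytb*, 0.945 for *mt-Nd1*, 0.891 for *mt-Nd5*, 0.831 for *mt-Nd4*, 0.813 for *mt-Nd2* and 0.764 for *mt-Nd6*. In spinalis (n = 22) it was 0.978 for *mt-Co1* and 0.911 for *mt-Nd1* but 0.776 for *mt-Nd4*, 0.656 for *mt-Cytb*, 0.634 for *mt-Nd2*, 0.598 for *mt-Nd5* and 0.527 for *mt-Nd6*. Spearman coefficients ran from 0.740 (*mt-Nd6*) to 0.996 (*mt-Co1*) in gastrocnemius and from 0.458 (*mt-Nd6*) to 0.971 (*mt-Co1*) in spinalis. Within groups, r was 0.929 for *mt-Nd1* and 0.919 for *mt-Cytb* in gastrocnemius, against 0.714 and 0.360 in spinalis, and the difference between the tables was not tested.

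Among 8729 nuclear genes of gastrocnemius, the 5 most like the sum were *Cox4i1*, a nuclear subunit of complex IV (r 0.928, and 0.738 within groups), *Timm17a* of the import channel of the inner membrane (0.924, 0.637 within groups), *Ndufs4* (0.923, 0.859), *Prdx5* (0.919, 0.734) and *Mpc1-ps* (0.911, 0.732). The 5 least like it were *Prrc2a* (-0.892), *Hdac7* (-0.870), *Olfml2a* (-0.868), *Sept11* (-0.864) and *Itih5* (-0.864). Among 8297 of spinalis, the 5 most like it were *Phyh*, a peroxisomal enzyme (0.952, and 0.635 within groups), *Ckmt2*, the creatine kinase of muscle mitochondria (0.914, 0.378), *Gm10221* (0.914, 0.421), *Fdx1* (0.914, 0.519) and *Nceh1* (0.913, 0.434). The 5 least like it were *Sema3c* (-0.946), *Ppp1r1a* (-0.942), *Lrtm1* (-0.904), *Pcx* (-0.896) and *Ppp1r14c* (-0.896). The libraries share their groups and treatments, and r within groups was closer to 0 for each of these 20 genes, as near as 0.06 for *Lrtm1*.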

How the data were processed

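Stranded total RNA libraries were aligned with STAR 2.7.1b to GRCm39, SAMtools 1.9 and Picard 2.20.2 were run, and reads were counted per gene with featureCounts (Subread 2.0.0). The authors deposited raw counts, whole numbers without normalisation, and these were the unit used. Symbols and positions came from GENCODE M21, on the earlier build GRCm38: 17433 of 17514 rows of the ORX table and 16920 of 16987 of the DHT table had a symbol. Libraries held 26.7 to 55.4 M counts (M, 1e6).

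Each table was fitted by itself with edgeR 4.0.16 (quasi-likelihood F test, TMM scaling, a mean for each of 4 groups), and p values were adjusted over all genes by the Benjamini-Hochberg method. A gene was called at an adjusted p of at most 0.01, or 0.05 for the interaction. Percentages of all genes called belong to this fit and not to the alternatives. Log2 CPM used a prior count of 2. On simulated counts of the same size, edgeR recovered 200 of 200 planted changes in the ORX design, with 4 false calls. In the DHT design it recovered 198 of 200, with 3 false calls. The planted effect size and spread are not given here, so this recovery does not measure power for the mtDNA genes. Scaling by nuclear genes took library sizes and TMM factors from nuclear genes alone. Alternatives were DESeq2 1.42.0, limma 3.58.1, other scalings, filters, thresholds and groups in the fit, a replicate block, and each library left out. Not planned beforehand were *mt-Rnr1* as a covariate, scaling or shares without *mt-Rnr1* and *mt-Rnr2*, and leaving out sets of libraries. Shares of counts are descriptions, and intervals are 95%. The genes and lists were chosen with earlier results of these data known. Named genes were all members in every comparison, up to 3 genes per list by smallest p and, for likeness, the 5 nuclear genes with the highest and the 5 with the lowest r (mean log2 CPM at least 3). Nuclear copies were searched in GENCODE M21 transcripts with R 4.3.3 and Python 3.11.15. KO-ORX sample 6 was left out because it had no column.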

Additional observations from a re-analysis of the deposited data

Results flagged for a closer look

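In groups of 5 or 6 mice, a library was picked out where its gap to the nearest other library was large against the range of its group. Chance does this in about 1 in 20 groups. Of 108 groups of mtDNA genes, 3 held such a library. *mt-Co1* in WT-empty mouse 4 was 17416.9 CPM, against 13830 to 14670 in the other 4. *mt-Tp* was 39.34 CPM in the same mouse, against 16.3 to 19.5, and 16.17 CPM in KO-empty mouse 62, against 9.82 to 11.2.

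The response of *mt-Tp* to DHT differed between genotypes by a test of the difference itself: the interaction was 1.667 on the log2 scale (standard error 0.416, adjusted p 0.0229), with 1.59 in KO (adjusted p 0.00125) and -0.08 in WT (adjusted p 0.901). Without WT-empty mouse 4 the interaction did not pass (1.37, adjusted p 0.0611), and without that mouse and KO-empty mouse 62 together, a setting added after the values were seen, it was 1.53 (adjusted p 0.0367). The cause was not tested.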

How the results depend on the processing

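Of 2366 alternative values of the 70 log2 fold changes of the 7 genes, 2263 kept their direction and their side of the threshold, 17 lost the call, 33 gained it and 53 changed sign. No called value changed sign in any of them, and the smallest adjusted p in the report's fit among those that did was 0.375. Without any 1 library, *mt-Co1* stayed called in all 4 treatment comparisons: -0.36 to -0.29 for ORX in WT, -0.52 to -0.46 in KO, 0.36 to 0.45 for DHT in WT and 0.39 to 0.45 in KO. *mt-Nd1* ran from -0.49 to -0.42 for ORX in KO and from 0.43 to 0.54 for DHT in WT. The number of the 7 genes called without any 1 library was 1 to 2 for ORX in WT, 2 to 5 for ORX in KO, 2 to 3 for DHT in WT, 1 to 2 for DHT in KO, 0 to 1 for KO against WT with DHT and 0 elsewhere. The number of all genes called fell from 975 to 589 without KO-ORX mouse 4 and to 606 without mouse 5 for ORX in KO. In KO-empty against WT-empty it fell from 722 to 481 or 450 without WT-empty mouse 4 or 7, and 453 without KO-empty mouse 64.

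Other settings moved the number of the 7 genes called as follows. DESeq2 called 2 for DHT in KO and 5 for ORX in KO, where a fit of the 2 groups alone also called 5. Of all genes, DESeq2 called 1201 for DHT in KO, against 784 by edgeR. The fit of the 2 groups called 485 for ORX in KO, against 975 in the fit of all groups. Library size without TMM called 2 for ORX in KO and 1 for KO against WT with DHT, where it moved the median of all genes to 0.121 and 0.088. Of all genes it called 900 and 1982 there. A threshold of 0.05 gave 2 for ORX in WT, 5 for ORX in KO, 3 for DHT in WT, 2 for DHT in KO, 1 for KO against WT with empty implants and 1 with DHT. Of all genes it gave 1735, 1925, 3078, 1840, 1557 and 3170, in the same order. The covariate *mt-Rnr1* was not planned beforehand. It gave 0 for ORX in WT, 1 for KO against WT in sham, 1 after ORX, 4 for DHT in KO and 2 for KO against WT with DHT. The replicate block in the ORX design gave 1, 4, 0, 0 and 0 and changed no call. Leaving out WT-ORX mice 3 and 4, added after the values were seen, gave 7 for ORX in WT and 6 for ORX in KO. Leaving out the 6 spinalis libraries lowest in *mt-Rnr1*, also added then, gave 1 for DHT in WT. Of all genes, leaving out these libraries called 636 for ORX in WT and 1196 for DHT in WT. No such count is given for ORX in KO or for the comparisons listed under the covariate. The cause was not tested.

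Signs turned under these settings. With the covariate: *mt-Nd4* 0.0364 and *mt-Nd6* 0.1785 for ORX in WT, *mt-Nd6* 0.0042 for DHT in KO, and in the DHT interaction *mt-Nd1* 0.0191, *mt-Nd5* 0.0946, *mt-Cytb* 0.1946 and *mt-Co1* -0.016. For KO against WT after ORX, *mt-Nd6* was 0.0013 with nuclear scaling, 0.0474 with library size, 0.0362 with limma and 0.0042 with *mt-Rnr1* and *mt-Rnr2* left out. Library size gave *mt-Nd5* 0.0132 in the DHT interaction. Without WT-ORX mice 3 and 4, KO against WT after ORX was 0.0677 for *mt-Nd2*, 0.1219 for *mt-Nd4*, 0.2873 for *mt-Nd6* and 0.0946 for *mt-Cytb*, and the ORX interaction was 0.1135 for *mt-Nd2*, 0.0239 for *mt-Nd5*, 0.0776 for *mt-Nd6* and 0.0204 for *mt-Cytb*. Without the 6 libraries, *mt-Nd6* was 0.0801 for DHT in KO, and the DHT interaction was 0.1005 for *mt-Nd5*, 0.0742 for *mt-Cytb* and -0.0384 for *mt-Co1*.

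Without any 1 library, values that turned ran over these ranges. In the DHT interaction: *mt-Co1* -0.0381 to 0.0519, *mt-Cytb* -0.1793 to 0.0218, *mt-Nd4* -0.0571 to 0.123 and *mt-Nd5* -0.0982 to 0.0639. For KO against WT: *mt-Nd1* -0.0606 to 0.008 in sham, *mt-Nd4* -0.1178 to 0.0273 and *mt-Nd6* -0.0848 to 0.1241 after ORX, and *mt-Nd2* -0.0406 to 0.1513 with DHT. For DHT in KO: *mt-Nd6* -0.1394 to 0.0708.

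The mean share of the 7 genes was 4.22% in WT-sham, 3.59% in WT-ORX, 4.39% in KO-sham and 3.44% in KO-ORX without the 10 most abundant nuclear genes. In the same order, all genes of the mitochondrial chromosome together took 14.7, 12.3, 15.1 and 12.97% of all counts. The 7 genes took 3.61, 2.93, 3.75 and 2.86% of counts without *mt-Rnr1* and *mt-Rnr2*. In spinalis, without the 10 most abundant nuclear genes, the 7 genes took 2.96% in WT-empty, 3.56% in WT-DHT, 3.17% in KO-empty and 4.02% in KO-DHT. All genes of the mitochondrial chromosome together took 5.99, 8.59, 9.21 and 10.03% of all counts. Without *mt-Rnr1* and *mt-Rnr2* in the total, the share of the 7 genes moved to 2.38% in KO-empty and 3.07% in KO-DHT.

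Library size without TMM moved the percentage of called genes that were higher from 37.5 to 54.4 for ORX in WT, 35.7 to 78.6 for ORX in KO, 28.2 to 46.9 for KO against WT after ORX, 75.0 to 100 in the ORX interaction, 58.8 to 43.6 for DHT in WT, 41.3 to 52.9 for KO against WT with empty implants, 44.1 to 65.3 with DHT and 41.5 to 55.1 in the DHT interaction. Whether equal numbers pair the mice of the ORX experiment is not said. Of 33 same-numbered pairs, 6 had r above 0.1, with a median of 0.007 against -0.009 for other pairs. Of the 6, 3 were between WT-sham and WT-ORX, 2 between KO-sham and WT-sham and 1 between KO-sham and KO-ORX. These values cannot exclude a pairing.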
